A study of Mus musculus with 96 samples.

Results

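The inhibitory interneurons of the mouse forebrain are told apart by a small set of genes, and 10 of them were followed here among the 19918 genes counted in 2 brain regions, prefrontal cortex (PFC) and nucleus accumbens (NAc). They were chosen by name: the neuropeptide precursors Sst, Npy, Vip, Cck and Adcyap1, the calcium-binding proteins Pvalb and Calb2, the transcription factor Lhx6, and Gad1 and Gad2, which encode the enzymes that make GABA. Each had 1 gene ID in the tables and passed the filter on low counts in both regions. The study asked how sex chromosomes, gonads and stress shape gene expression in these regions, with bulk RNA sequencing of 96 tissue-punch libraries from 48 FCG mice (a model whose core genotypes separate gonads from sex chromosomes). In these mice Sry, the testis-determining gene, is missing from the Y chromosome (Y-) and may be carried as a transgene on an autosome. Stressed mice received subchronic variable stress, 3 restraint sessions of 1 h within 6 days, and controls were left unstressed. The sources used here give neither age nor strain background.

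Within each region there were 8 groups, each library from a different animal. XX mice (ovaries) comprised 6 Stress and 5 Control animals, and XXSry mice (testes) comprised 6 Stress and 6 Control animals. XY- mice (ovaries) comprised 6 Stress and 7 Control animals, and XY-Sry mice (testes) comprised 6 Stress and 6 Control animals. All XY animals therefore carried the Y chromosome without Sry, and both genotypes with testes carried the transgene. Animals came from 3 cohorts, the batch named in the labels, which held 12 Stress and 11 Control animals, 2 Stress and 10 Control animals, and 10 Stress and 3 Control animals. Total counts per library were 45.9 M to 120.8 M in the NAc and 67.6 M to 104.4 M in the PFC. Levels are given as CPM, the count of a gene relative to the TMM-scaled total of its library, and a gene was called changed where edgeR's quasi-likelihood test gave an adjusted p below 0.05 over all genes of the fit. Values of a bulk sample cannot tell fewer cells of a type from less RNA per cell, which holds for every result below.

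Interneurons release GABA onto nearby cells and fall into classes by birthplace and marker. Those born in the medial ganglionic eminence keep Lhx6 and mostly express Pvalb or Sst, many of the Sst cells together with Npy, while Vip and Calb2 mark cells from the caudal ganglionic eminence. Cck is shared between a class of interneurons and many cortical excitatory neurons, and Adcyap1, the precursor of the peptide PACAP, is made mainly by excitatory neurons in cortex. In the NAc most neurons are GABAergic projection neurons, so Gad1 and Gad2 there are not interneuron markers alone.

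Sst and Vip are textbook targets of cyclic AMP signalling through a promoter element, so the 100 bases upstream of the start site are shown for the 4 peptide genes with a match. Sequences are from RefSeq (build GRCm38.p6), in which 9 of the 10 genes had a promoter entry. They are printed 5′ to 3′ on the gene's strand, with the cyclic AMP response element TGACGTCA, or its half-site TGACG or CGTCA, in capitals. Sst lies on the minus strand at chr16:23890845-23890944, Cck on the minus strand at chr9:121495695-121495794, Vip on the plus strand at chr10:5639118-5639217 and Adcyap1 on the plus strand at chr17:93198917-93199016.
Sst: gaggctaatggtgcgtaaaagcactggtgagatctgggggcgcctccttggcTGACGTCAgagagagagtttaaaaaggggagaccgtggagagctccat
Cck: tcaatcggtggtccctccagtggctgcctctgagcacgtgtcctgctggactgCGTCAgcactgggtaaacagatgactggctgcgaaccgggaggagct
Vip: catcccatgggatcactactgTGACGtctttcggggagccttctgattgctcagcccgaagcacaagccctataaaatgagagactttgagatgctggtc
Adcyap1: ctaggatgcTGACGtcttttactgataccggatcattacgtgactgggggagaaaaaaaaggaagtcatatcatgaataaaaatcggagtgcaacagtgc

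Both strands of the 250 bases upstream were searched. The full element began at -48 in Sst and was in no other member searched, against 1.55% of 32851 promoters. The half-site, which the full element also contains, began at -79 in Vip, -47 in Cck, -91 in Adcyap1 and -33 in Gad2, against 17.8% of all promoters. These matches describe the letters of the window and say nothing of binding.

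In the PFC, 3 libraries stood apart from the other 45 and are named before any result that rests on them. Calb2, which encodes calretinin, was at 59.96 CPM in XY- Stress replicate 15, 42.2 CPM in XXSry Control replicate 51 and 36.3 CPM in XY-Sry Control replicate 38 (replicate numbers are the library numbers in the labels), and at 10.2 to 14.2 CPM in the other 45. The summed level of 5 olfactory bulb genes (Cdhr1, Tbx21, Eomes, Doc2g and Th), a list chosen after the Calb2 values were seen, was 117, 85.3 and 60.2 CPM in the same 3 libraries and 3.96 to 10.5 CPM in the others. Eomes, a transcription factor of the bulb's projection neurons, was at 24.01, 13.3 and 8.09 CPM in the 3 libraries and at no more than 0.306 CPM in the rest. The other members were within the range of the remaining libraries there. For the region, XX minus XY and stress by gonads, the Calb2 result is given with and without these libraries. Its other PFC values, among them those for stress, gonads and levels per kilobase, rest on all libraries. In each region the defining markers of the labelled tissue were present: 9 cortical excitatory neuron markers summed to 2059 to 2509 CPM in the PFC, and 8 striatal projection neuron markers summed to 1422 to 4576 CPM in the NAc.

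All 10 members were called different between the regions, in libraries of the same animals. Cck, Vip, Adcyap1 and Pvalb were the lower ones in the NAc by wide margins, Npy and Sst by narrow ones, and Gad1, Gad2, Calb2 and Lhx6 were higher there. The test was edgeR's quasi-likelihood fit over the 96 libraries with the animal as a block, in which 80.9% of all 19918 genes were called (41.2% higher and 39.7% lower in the NAc). A count of 10 of 10 is thus close to the background of this comparison. The median log2 difference was -0.23 over the members and 0.017 over all genes.

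Among the peptides, Adcyap1 had the widest gap. Its level was 0.079 to 9.91 CPM in the 48 NAc libraries, with a median of 1.87, and 23.7 to 52.1 CPM in the 48 PFC libraries, with a median of 37.5. The ranges did not overlap, and the log2 difference of NAc minus PFC was -4.35 (SE 0.367, adjusted p = 6.76e-14). Cck, the most abundant of these peptides in the PFC by CPM, was at 2.85 to 63.6 CPM in the NAc (median 29.96) and 179 to 261 CPM in the PFC (median 223). No NAc library reached the lowest PFC library, and the log2 difference was -3.18 (SE 0.235, adjusted p = 1.30e-15). Vip, a peptide of interneurons that mainly inhibit other interneurons, was at 2.75 to 19.4 CPM in the NAc (median 7.94) and 45.4 to 78.0 CPM in the PFC (median 55.4). The groups were again fully apart, with a log2 difference of -2.79 (SE 0.141, adjusted p = 4.84e-21).

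Sst and Npy, which are often made by the same cells, were nearly level between the regions. Sst was at 95.6 to 210 CPM in the NAc (median 136) and 114 to 169 CPM in the PFC (median 145), with a log2 difference of -0.17 (SE 0.0492, adjusted p = 0.00205). Npy was at 31.5 to 58.2 CPM in the NAc (median 46.1) and 41.5 to 67.9 CPM in the PFC (median 52.2), with a log2 difference of -0.29 (SE 0.0502, adjusted p = 1.18e-06). The libraries overlapped widely, and the NAc exceeded the PFC of the same animal in 15 of 48 animals for Sst and 9 of 48 for Npy. These log2 differences are those of cohort 1, the reference of the region by cohort term. A fit without cohort 1 gives the differences of cohort 2 instead. In it Sst was at 0.04 (adjusted p = 0.68 by edgeR), Npy at -0.08 (adjusted p = 0.416) and Lhx6 at 0.16 (adjusted p = 0.184), and none of these was called. As the reference changes, this fit does not test how far the calls rest on cohort 1.

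Of the calcium-binding proteins, Pvalb, the marker of fast-spiking cells, was at 1.34 to 13.6 CPM in the NAc (median 5.22) and 15.0 to 32.9 CPM in the PFC (median 20.8). No library of one region entered the range of the other, and the log2 difference was -2.03 (SE 0.182, adjusted p = 3.77e-13). Calb2 went the other way. It was at 13.2 to 46.1 CPM in the NAc (median 24.5) and 10.2 to 59.96 CPM in the PFC (median 12.1), and was higher in the NAc of 45 of 48 animals, with a log2 difference of 0.74 (SE 0.135, adjusted p = 4.32e-06). The 3 exceptions were the animals of the libraries named above, and without them the difference was 1.02. Lhx6, which specifies interneurons of the medial ganglionic eminence, was at 17.6 to 41.7 CPM in the NAc (median 23.5) and 16.7 to 22.03 CPM in the PFC (median 19.4). It was higher in the NAc of 41 of 48 animals, with a log2 difference of 0.37 (SE 0.0663, adjusted p = 2.37e-06).

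Both enzymes of GABA synthesis were higher in the NAc of all 48 animals. Gad1 was at 476 to 765 CPM in the NAc (median 626) and 251 to 348 CPM in the PFC (median 303), a log2 difference of 1.04 (SE 0.0396, adjusted p = 2.36e-27). Gad1 overlaps the counted gene Gad1os on the other strand, and the sources used here do not give the strand setting of the counting, so its value is uncertain. Gad2 was at 609 to 1143 CPM in the NAc (median 891) and 177 to 248 CPM in the PFC (median 198), a log2 difference of 2.15 (SE 0.0540, adjusted p = 1.73e-33).

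**Figure D1:**
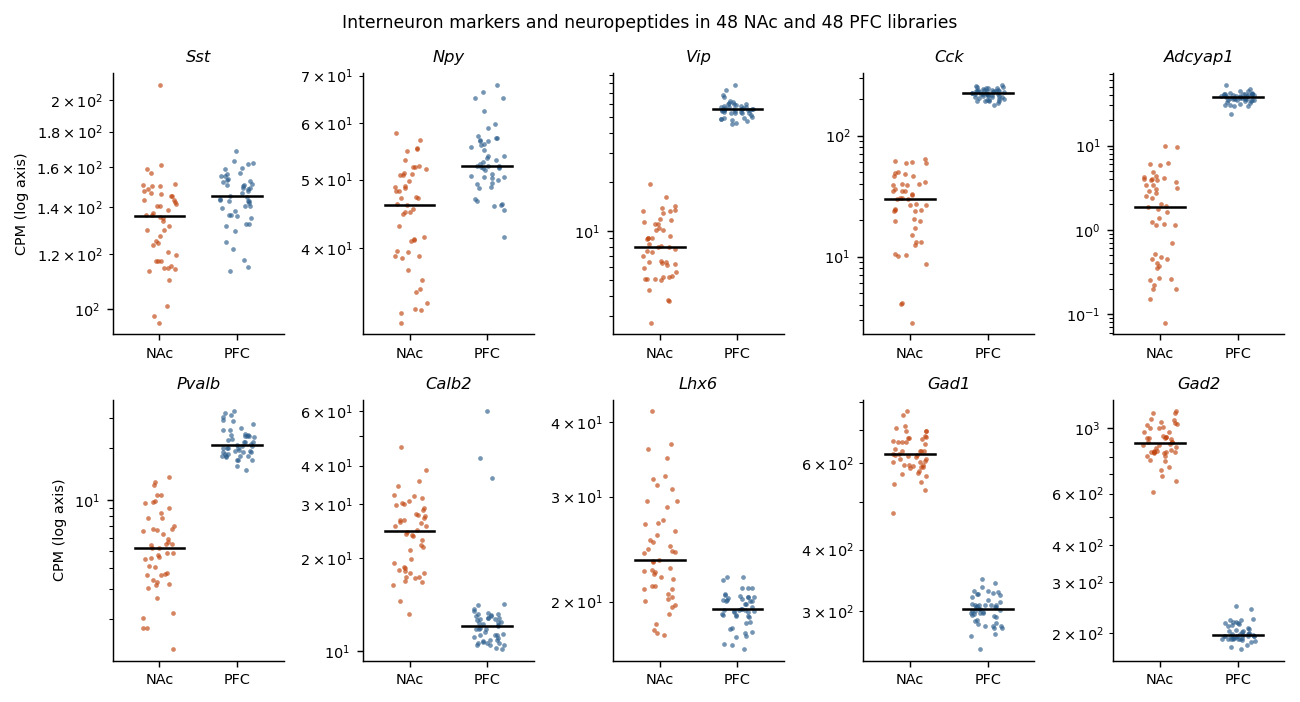
Level of each gene in CPM (log axis) in the 48 NAc libraries (left in each panel) and the 48 PFC libraries (right); points are libraries and black lines medians. Vip, Cck, Adcyap1 and Pvalb lie lower in the NAc with no overlap, Gad1 and Gad2 lie higher with no overlap, and 3 PFC libraries stand apart for Calb2 at 36.3 to 59.96 CPM.

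Levels per kilobase of exon allow the genes to be ranked within a region. In the NAc the order of CPM per kilobase was Sst (186), Gad2 (153), Gad1 (82.5), Npy (79.6), Cck (23.2), Calb2 (14.1), Pvalb (5.58), Lhx6 (5.17), Vip (2.52) and Adcyap1 (0.655). There the neighbours Gad1 and Npy, Cck and Calb2, and Pvalb and Lhx6 lay closer than the larger SD of the pair over 48 libraries. In the PFC the order was Sst (200), Cck (170), Npy (94.4), Gad1 (39.6), Gad2 (34.4), Pvalb (21.1), Vip (16.4), Adcyap1 (9.87), Calb2 (8.08) and Lhx6 (4.05). In the PFC the neighbours Adcyap1 and Calb2, and Calb2 and Lhx6, were not separated by more than the larger SD over all 48 libraries. That SD was the one of Calb2 (5.06 per kilobase), which includes the 3 libraries that stood apart. In the other 45 libraries Calb2 was at 11.9 ± 1.12 CPM (SD), and the separation per kilobase was not computed without the 3. Sst thus ranked highest in both regions per kilobase, whereas Cck was the fifth in the NAc and the second in the PFC.

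The wider interneuron and peptide genes were listed with earlier results of these data known and are described by counts. Of 80 entries in 8 lists, 26 were called higher in the NAc and 40 lower, against 41.2% and 39.7% of all genes. All 6 pan-interneuron transcription factors were called higher in the NAc, with a list median of 1.49 on the log2 scale. Dlx6, a homeobox factor of GABAergic neurons, was at 36.8 ± 5.31 CPM in the NAc and 4.64 ± 0.587 CPM in the PFC (SD, n = 48 each), with a log2 difference of 2.94 (adjusted p = 1.21e-36). Dlx5, Sp9 and Dlx2 had log2 differences of 1.87, 2.27 and 1.10. Of 5 genes of GABA release, uptake and breakdown, 3 were called higher and 0 lower (median 0.81). They were Abat, which degrades GABA, at 1.18, Slc32a1, the vesicular GABA transporter, at 1.44, and Aldh5a1, which follows Abat in that pathway, at 0.81 on the log2 scale.

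The lists of interneuron lineages were split, in a comparison that called 41.2% of all genes higher and 39.7% lower. Of 18 genes of the medial ganglionic eminence lineage, 4 were called higher in the NAc and 9 lower, with a median log2 difference of -0.10. Nkx2-1, the factor that patterns this eminence, was at 4.45 ± 1.12 CPM in the NAc and 0.0529 ± 0.0449 CPM in the PFC (SD, n = 48 each), and Chodl, a gene of long-range Sst cells, was at 5.33 ± 1.45 CPM in the NAc and 0.377 ± 0.137 CPM in the PFC. Of 12 genes of the caudal ganglionic eminence lineage, 2 were called higher and 7 lower (median -0.56). Lamp5, Htr3a, Cnr1 and Npas1 were among the lower ones, at -1.36, -1.60, -1.32 and -2.67. Perineuronal net genes, whose products surround Pvalb cells in cortex, were called higher in 1 case and lower in 5 of 6 (median -0.37). Has3 was the higher one at 2.13. Hapln4 and Hapln1, link proteins of the net, were lower at -2.12 and -0.56, and Tnr, a matrix glycoprotein, at -0.45.

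Genes that act with the peptides were counted in the same comparison, in which 80.9% of all genes were called. Of 12 receptors of the member peptides, 3 were called higher in the NAc and 8 lower, with a median log2 difference of -0.84. Npy2r, a presynaptic receptor of neuropeptide Y, was at 21.6 ± 4.48 CPM in the NAc and 4.17 ± 0.476 CPM in the PFC (SD, n = 48 each). Npy1r, the other main receptor of that peptide, had the opposite direction, at 17.7 ± 4.22 CPM in the NAc and 47.4 ± 2.77 CPM in the PFC. Cckbr, the main brain receptor of cholecystokinin, was at 20.5 ± 5.62 CPM in the NAc and 101 ± 7.87 CPM in the PFC, and Vipr1, which binds both VIP and PACAP, was at 21.6 ± 3.17 CPM in the NAc and 38.4 ± 2.30 CPM in the PFC. The remaining higher receptors, named after their values were seen, were Adcyap1r1, the PACAP receptor, at 0.21 (adjusted p = 1.27e-09) and Cckar, which did not pass the filter on low counts in the PFC alone. Of 6 peptide processing enzymes 5 were called lower and 0 higher. Among them were the convertases Pcsk2 at -1.17 and Pcsk1 at -1.26, Pam, which amidates peptides, at -0.68, and Scg5, the chaperone of Pcsk2, at -0.23. Of 15 other peptide precursors, 7 were called higher and 6 lower. Penk, the enkephalin precursor, and Tac1, the substance P precursor, both made by striatal projection neurons, were at 4.997 and 4.32 on the log2 scale. The granins, proteins of secretory granules that are cut into peptides, were split: Scg2 was higher at 1.81, and Chgb was lower at -1.23, with 209 ± 24.4 CPM in the NAc and 494 ± 34.2 CPM in the PFC (SD, n = 48 each). The marker lists moved with all of these values: 9 of 9 cortical excitatory neuron markers were called lower in the NAc and 8 of 8 striatal projection neuron markers higher, and their part in the result was not tested.

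The sex chromosome comparison gave the only call among the members outside the regional one. In the PFC, Adcyap1 was higher in XX than in XY animals. It was at 35.01 to 52.1 CPM in 23 XX libraries (median 40.3, mean 40.2 ± 3.96 SD) and 23.7 to 40.8 CPM in 25 XY libraries (median 35.05, mean 34.6 ± 4.17 SD). Of the XX libraries 22 lay above the XY median and 7 above every XY library, and 12 XY libraries lay below every XX library. The log2 difference was 0.21 (SE 0.0513, 95% interval 0.109 to 0.316, adjusted p = 0.0244 by edgeR's quasi-likelihood test). It was 1 of 10 members called, where 1.12% of 19292 genes were called and 0.28% were called higher in XX.

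By group, the 6 XX Stress libraries held 35.9 to 52.1 CPM of Adcyap1 with a median of 38.5, and the 5 XX Control libraries held 35.01, 37.8, 40.3, 40.4 and 41.3 CPM. XXSry Stress libraries held 38.3 to 44.1 CPM (median 39.7) and XXSry Control libraries 36.4 to 44.8 CPM (median 40.6). All 4 XX groups had medians above those of all 4 XY groups. XY- Stress libraries held 29.3 to 40.1 CPM (median 35.2) and XY- Control libraries 29.9 to 40.05 CPM (median 34.98). XY-Sry Stress libraries held 23.7 to 39.4 CPM (median 35.4) and XY-Sry Control libraries 29.8 to 40.8 CPM (median 35.1). The contrasts within a gonad type were added after these values were seen. XX minus XY- (ovaries) gave 0.20 (adjusted p = 0.276), where 0.56% of genes were called, and XXSry minus XY-Sry (testes) gave 0.22 (adjusted p = 0.401), where 0.171% were. Neither was called, also by DESeq2 and limma-voom. In the NAc these contrasts called 0 of 10 members by all 3 tools, with no unadjusted p below 0.05, where edgeR called 0.533% of genes within ovaries and 0.132% within testes.

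**Figure D2:**
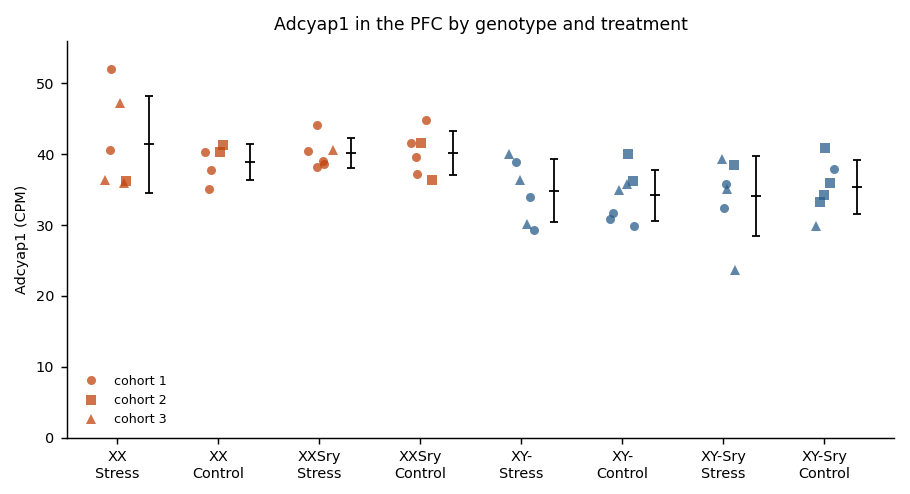
Adcyap1 in the PFC in CPM for the 4 XX groups (left) and the 4 XY groups (right); each point is a library, its shape gives the cohort, and bars show mean ± SD. The XX libraries lie at 35.01 to 52.1 CPM and the XY libraries at 23.7 to 40.8 CPM.

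The difference was in the same direction in each cohort and was not of one size. Within cohort 1 it was 0.28 (adjusted p = 0.0209), within cohort 2 it was 0.07 (adjusted p = 1.00) and within cohort 3 it was 0.21 (adjusted p = 0.999). It was called in 47 of 48 fits that each left out 1 library, at 0.195 to 0.227 with adjusted p from 0.0120 to 0.0542, and was lost without XX Stress replicate 18. With 2 surrogate variables in the model it was 0.20 (adjusted p = 0.0678). Markers of other cells were read beside it: of 54 markers in 11 lists, 53 were tested in this comparison. Of these, 2 were called, where 1.12% of all genes were. Drd2, a dopamine receptor of striatal projection neurons, had a log2 difference of -0.65 (SE 0.141, adjusted p = 0.00785) at a mean of 0.714 CPM in the PFC, and Gja1, an astrocyte connexin, had -0.10 (adjusted p = 0.0425). The summed striatal markers were 173 to 213 CPM in XX and 174 to 279 CPM in XY libraries. The summed astrocyte markers were 819 to 1031 CPM in XX and 817 to 1083 CPM in XY libraries. The summed cortical excitatory markers were 2059 to 2485 CPM in XX and 2161 to 2509 CPM in XY libraries. Their part in the Adcyap1 difference was not tested.

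The other 9 members were not called in the PFC between XX and XY animals. With Adcyap1, 3 of 10 members passed an unadjusted p of 0.05, against 11.6% of all genes. Without the 3 libraries that stood apart only Adcyap1 did (0.24, adjusted p = 0.0257 by edgeR), with Npy at an unadjusted p of 0.112 and Gad2 at 0.059. Npy was at 45.96 to 59.1 CPM in XX and 41.5 to 67.9 CPM in XY libraries, a log2 difference of -0.09 (unadjusted p = 0.0431, adjusted p = 0.405 by edgeR). Gad2 was at 177 to 241 CPM in XX and 183 to 248 CPM in XY libraries, a difference of -0.07 (unadjusted p = 0.0233, adjusted p = 0.318). Calb2 was at -0.32 (SE 0.165) with all libraries and at -0.07 without the 3 that stood apart. Pvalb was at 0.05 with a 95% interval of -0.11 to 0.21 on the log2 scale. Among Sst, Vip, Cck, Lhx6 and Gad1, at -0.02, -0.05, 0.03, 0.0029 and -0.04, the interval that reached farthest from no difference was that of Vip, which ended at -0.13. None of the 11 receptors of the member peptides tested in the PFC was called, and Adcyap1r1 was at -0.04 (SE 0.0235).

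In the NAc, 0 of 10 members were called between XX and XY animals, where 0.584% of 19684 genes were. None passed an unadjusted p of 0.05 with edgeR, which 5.97% of genes did, and DESeq2 and limma-voom also called 0. Adcyap1 was at 0.079 to 9.91 CPM in XX (median 2.00) and 0.149 to 5.96 CPM in XY (median 1.25), a log2 difference of 0.48 with a 95% interval of -0.43 to 1.39. Sst, Npy, Lhx6, Gad1 and Gad2 were at -0.0094, -0.03, -0.03, 0.03 and -0.01, with intervals within -0.20 to 0.14. Vip, Cck, Pvalb and Calb2 were at 0.04, 0.09, -0.14 and -0.11, with intervals that reached as far as -0.60 and 0.64. The interval of Adcyap1 contains the PFC value, and the test of the chromosome difference between regions called 0 members, where 0.0151% of genes were called.

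Stress changed no member by the threshold in either region, and the same held for all genes (0.0% called in each). In the PFC 1 of 10 members passed an unadjusted p of 0.05, against 5.73% of all genes, and in the NAc 0 of 10 did, against 4.59%. DESeq2 and limma-voom called 0 members as well. Vip in the PFC was at 45.4 to 65.7 CPM in 24 Stress libraries and 47.3 to 78.0 CPM in 24 Control libraries, with a log2 difference of -0.10 (SE 0.0445, unadjusted p = 0.0244, adjusted p = 0.786). Within cohorts 1, 2 and 3 it was -0.04, -0.13 and -0.31. Sst, Npy, Cck, Adcyap1, Pvalb, Lhx6, Gad1 and Gad2 in the PFC lay between -0.04 (Gad1) and 0.07 (Sst). Calb2 was at -0.11 (-0.48 to 0.25) there with all libraries, including the 3 that stood apart. In the PFC, Calb2 aside, the 95% interval that reached farthest from no difference was that of Vip, which ended at -0.19. In the NAc the intervals of Adcyap1, Cck, Pvalb and Vip were wide, with Adcyap1 at -0.64 (-1.69 to 0.41), at 0.079 to 9.91 CPM in Stress and 0.196 to 9.64 CPM in Control libraries. Cck, Pvalb and Vip were at -0.11, -0.08 and -0.08 there, and Sst, Npy, Calb2, Lhx6, Gad1 and Gad2 lay between -0.13 (Npy) and 0.06 (Lhx6).

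**Figure D3:**
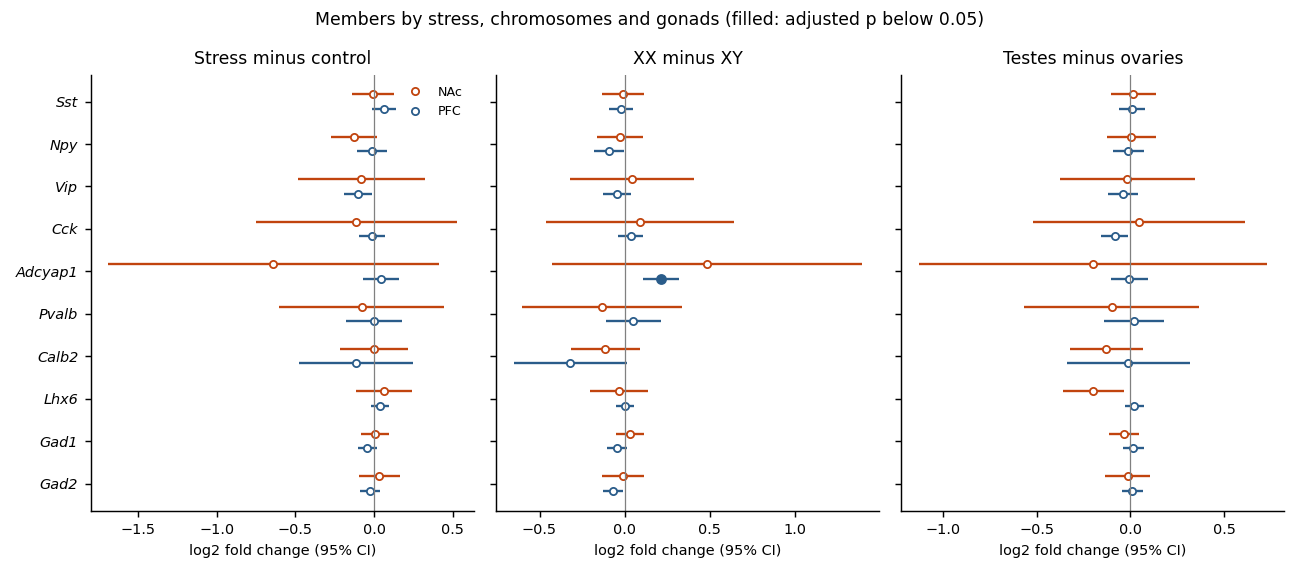
Log2 fold change with its 95% interval for each gene in the NAc (orange) and the PFC (blue), for stress minus control, XX minus XY and testes minus ovaries; filled points have an adjusted p below 0.05. Adcyap1 in the PFC, at 0.21 for XX minus XY, is the single filled point, and the widest intervals are those of Adcyap1 in the NAc.

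Within genotypes, 0 of 10 members were called for stress in any of the 4 genotypes or in either region, where 0.0% of all genes were called. By unadjusted p, at most 3 of 10 passed 0.05 in such a contrast, in the PFC of XY-Sry mice, against 6.3% of genes. The lowest adjusted p belonged to Vip in the PFC of XY- mice, at 45.4, 49.01, 49.3, 52.7, 52.9 and 56.3 CPM in 6 Stress libraries and 55.0, 55.7, 58.7, 60.4, 67.5, 73.1 and 78.0 CPM in 7 Control libraries. A single Stress library entered the Control range. The log2 difference was -0.35 (SE 0.0783, unadjusted p = 6.78e-05, adjusted p = 0.131 by edgeR). DESeq2 gave -0.34 and an adjusted p of 0.00945, and limma-voom gave an adjusted p of 0.129. Leaving out each library gave adjusted p-values of 0.0579 to 0.587 by edgeR. The share of 0.0% is that of edgeR, and the share of all genes that DESeq2 called in this contrast is not given. The same contrast in the other 3 genotypes had no call, and the test of stress by chromosomes for Vip in the PFC was 0.19 (unadjusted p = 0.0221, adjusted p = 1.00).

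In XY-Sry mice the PFC levels of Sst were 150 to 163 CPM in 6 Stress and 118 to 153 CPM in 6 Control libraries, a log2 difference of 0.20 (unadjusted p = 0.00671, adjusted p = 0.739 by edgeR). Pvalb in the same mice was at 21.2 to 32.3 CPM in Stress and 17.1 to 23.8 CPM in Control libraries (0.37, unadjusted p = 0.0294, adjusted p = 0.755). The groups overlapped for both genes. Calb2 had the lowest unadjusted p for stress by gonads in the PFC, at -0.88 (unadjusted p = 0.00982, adjusted p = 0.634), and was at -0.01 without the 3 libraries that stood apart. No interaction called a member in either region, and 0.0% of genes were called in each of these, while 4 of 10 members passed an unadjusted p of 0.05 for stress by gonads in the PFC, against 6.72% of genes. Without the 3 libraries that stood apart this was 1 of 10, Lhx6 (0.12, unadjusted p = 0.0291, adjusted p = 0.932 by edgeR).

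Testes and ovaries did not differ in any member by the threshold: 0 of 10 were called in the PFC, where 0.0467% of genes were, and 0 of 10 in the NAc, where 0.0102% were. By unadjusted p, 1 member passed 0.05 in each region, against 9.28% of genes in the NAc and 6.74% in the PFC, and DESeq2 and limma-voom called 0. Cck in the PFC was at 179 to 246 CPM in 24 testes libraries and 192 to 261 CPM in 24 ovaries libraries, a log2 difference of -0.09 (unadjusted p = 0.0243, adjusted p = 0.642 by edgeR). Lhx6 in the NAc was at 17.6 to 36.1 CPM in testes and 20.03 to 41.7 CPM in ovaries libraries, a difference of -0.20 (unadjusted p = 0.0194, adjusted p = 0.509). The libraries overlapped almost wholly in both. Of the other members in the PFC, Sst, Npy, Vip, Adcyap1, Pvalb, Calb2, Lhx6, Gad1 and Gad2 lay between -0.04 (Vip) and 0.02 (Lhx6). The widest interval there was that of Calb2, from -0.34 to 0.32 with all libraries. In the NAc, Sst, Npy, Vip, Cck, Adcyap1, Pvalb, Calb2, Gad1 and Gad2 lay between -0.20 (Adcyap1) and 0.04 (Cck), and the widest interval was that of Adcyap1, from -1.13 to 0.73.

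The 8 lists of related genes, with 80 entries in all, gave 0 calls in any comparison of stress, chromosomes or gonads in either region. In the PFC 79 of these entries were tested. Few genes of any kind were called there. The shares over all genes were 0.0% for stress in each region, 0.584% (NAc) and 1.12% (PFC) for chromosomes, and 0.0102% (NAc) and 0.0467% (PFC) for gonads.

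More pairs of members varied together across libraries in the NAc than in the PFC, a difference that was not tested. Pearson's r was computed on log2 CPM after group and cohort means were removed, over 48 libraries a region. It was tested with 100000 permutations, with p-values adjusted over 90 pairs by the Benjamini-Hochberg method. The permutations treat the residuals as 48 free values and do not allow for the means removed, so these p-values are somewhat too small. In the NAc 30 of 45 pairs had an adjusted p below 0.05, 18 of them positive and 12 negative, and in the PFC 9 of 45, with 7 positive and 2 negative. In the NAc 15 of the positive pairs were all those among the 5 peptides and Pvalb, and the other three were Calb2 with Lhx6, Lhx6 with Gad1, and Gad1 with Gad2. The 12 negative pairs set the peptides and Pvalb against Gad1 and Gad2. All points of a region share the scaling of their library, so a gene of high level can move the others.

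The NAc pairs of highest r were Gad1 with Gad2 and Sst with Npy, both at 0.82 (rho 0.76 and 0.78). Vip with Cck had r = 0.80 (rho 0.83), and Cck with Gad2 had r = -0.76 (rho -0.77). Each of these 4 pairs had a permutation p of 1e-05, the smallest that 100000 draws can give, and an adjusted p of 5.62e-05. Without the 2 libraries farthest from the median they were at 0.74, 0.78, 0.75 and -0.78. Values within cohorts 1, 2 and 3 (23, 12 and 13 libraries) were computed without removal of group means. There Sst with Npy was at 0.77, 0.60 and 0.86, and Cck with Gad2 at -0.85, -0.23 and -0.75. The sign of all 30 pairs was the same in cohorts 1 and 3, and that of 22 of 30 in cohort 2.

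In the PFC the positive pairs joined Sst, Npy, Pvalb, Gad1 and Gad2, and the negative ones joined Lhx6 with Npy and with Cck. Pvalb with Gad1 had r = 0.62 (rho 0.55, permutation p = 1e-05, adjusted p = 5.62e-05), and Gad1 with Gad2 had r = 0.59 (rho 0.60, permutation p = 4.0e-05, adjusted p = 0.000171). Npy was tied to Gad1 at 0.58 (rho 0.55), to Pvalb at 0.52 (rho 0.58) and to Sst at 0.39 (rho 0.34). Cck with Lhx6 was negative at -0.53 (rho -0.56, permutation p = 9.0e-05, adjusted p = 0.000352). Vip with Cck, at 0.80 in the NAc, was at -0.04 in the PFC (permutation p = 0.769, adjusted p = 0.862); the difference between the regions was not tested. All 9 pairs kept their sign in each of the 3 cohorts, where group means were not removed. Marker sums moved with these members too, as described over the 48 PFC libraries on the log2 residuals. The sum of 3 claustrum and endopiriform markers, at 127 to 216 CPM, had r = -0.83 with Pvalb, -0.52 with Sst, -0.43 with Npy and -0.42 with Gad1 (rho -0.81, -0.63, -0.47 and -0.37). The sum of 5 oligodendrocyte markers, at 625.2 to 1551 CPM, had r = 0.69 with Pvalb (rho 0.69). Their part in the PFC pairs was not tested.

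**Figure D4:**
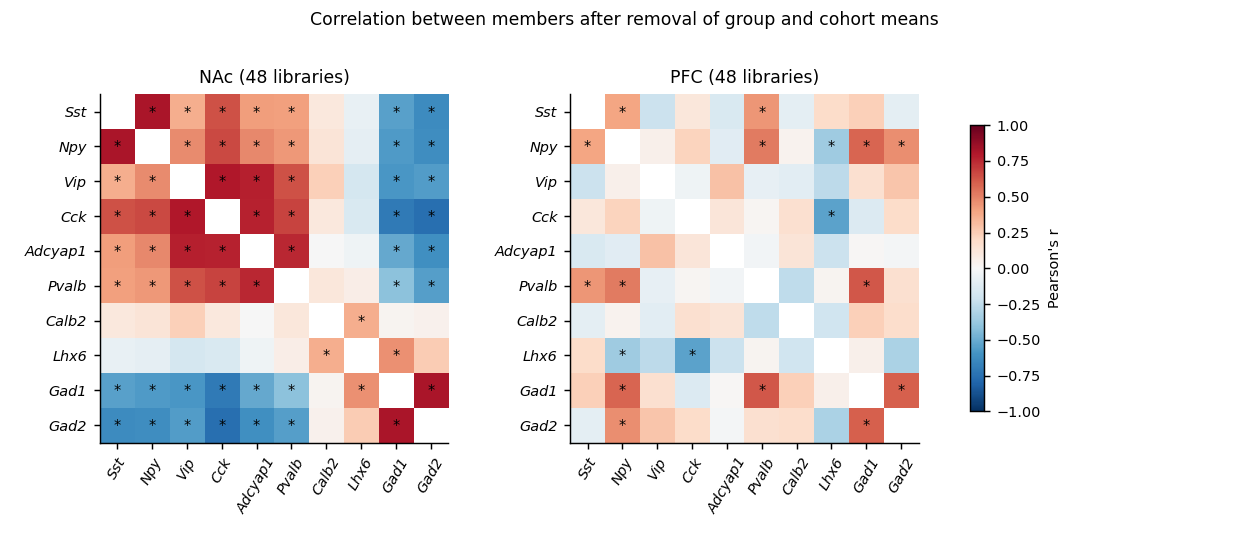
Pearson's r between each pair of the 10 genes over 48 libraries in the NAc (left) and the PFC (right), after removal of group and cohort means; stars mark an adjusted permutation p below 0.05. There are stars on 30 of 45 NAc pairs and on 9 of 45 PFC pairs. The peptides and Pvalb of the NAc are positive with each other and negative with Gad1 and Gad2.

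The NAc libraries also differed in their level of cortical genes, and the members moved with them. The 9 cortical excitatory neuron markers summed to 74.4 to 1008 CPM in the NAc and 2059 to 2509 CPM in the PFC. On the log2 residuals over the 48 NAc libraries, r with this sum was 0.96 for Cck, 0.77 for Adcyap1, 0.75 for Vip, 0.68 for Pvalb, 0.67 for Npy and 0.65 for Sst. It was -0.81 for Gad2 and -0.73 for Gad1, and 0.07 and -0.23 for Calb2 and Lhx6. Spearman's rho was 0.58 to 0.94 for the 6 positive members, and -0.72 for Gad1 and -0.79 for Gad2. These are descriptions over libraries that share their scaling, and the part of these markers in the pairs above was not tested. The library with the lowest sum, XXSry Control replicate 27 at 74.4 CPM, held 4.05 CPM of Cck and 1130 CPM of Gad2. The library with the highest sum, XY-Sry Stress replicate 7 at 1008 CPM, held 59.0 CPM of Cck and 609 CPM of Gad2. The sums overlapped between the treatments, at 117 to 1008 CPM in Stress and 74.4 to 801 CPM in Control libraries, but were not even across the genotype and treatment groups. In XY-Sry mice they were at 545 to 801 CPM in Control libraries. The XY-Sry Stress libraries were at 175, 292, 338, 423 and 436 CPM, with replicate 7 at 1008 CPM. In the other genotypes the Stress and Control libraries were intermixed.

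**Figure D5:**
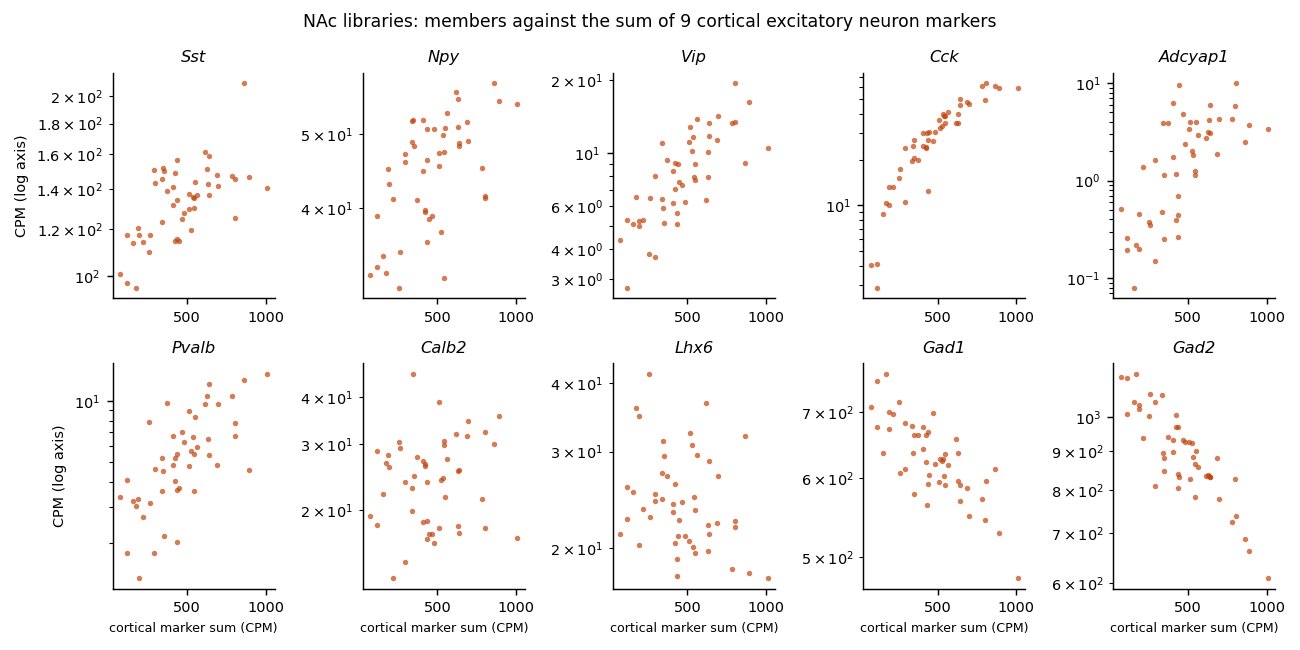
Level of each gene in CPM (log axis) against the summed CPM of 9 cortical excitatory neuron markers in the 48 NAc libraries, each a point. Cck, Adcyap1 and Vip are higher where the sum, from 74.4 to 1008 CPM, is higher, Gad1 and Gad2 are lower, and Calb2 and Lhx6 show no such order.

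Genes whose pattern over the 48 libraries of a region was most like that of a member, by Pearson's r on the same residuals among genes with a mean of at least 1 CPM, differed between the regions. In the NAc, Cck was most like Slc17a7, the vesicular glutamate transporter of cortical neurons, at 0.96, followed by Vxn at 0.96 and Prdm8 at 0.95. Sst was most like Sstr2, a somatostatin receptor, at 0.78, and Npy had Arhgdig at 0.74 and the same receptor at 0.73. Lhx6 was most like AI606473, Gbx1 and Lhx8 at 0.84, 0.84 and 0.82, and Gad1 was most like Abat at 0.84. Pvalb there was most like Nrip3 at 0.87, followed by Hapln4 at 0.86. Matches are named here for a selection of members in each region. Sst in the PFC was most like Tpra1 at 0.62, Plekho1 at 0.61 and Mus81 at 0.61. In the PFC, Pvalb was most like Kcnab3, a potassium channel subunit, at 0.87 and Syt2, a synaptotagmin of fast-spiking cells, at 0.86. Adcyap1 in the PFC was most like Rgs4 at 0.77, Fam19a1 at 0.76 and Bdnf, the neurotrophin, at 0.70. Vip had Calb1 at 0.74 and Pam at 0.70. Calb2 in the PFC was most like Cacng5 at 0.91 and Cdhr1 at 0.90, with rank correlations of 0.69 and 0.80, in a set of libraries that includes the 3 that stood apart.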

How the data were processed

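Per the labels' protocols, polyadenylated RNA of tissue punches went into Illumina TruSeq mRNA libraries. The authors deposited raw counts per gene, 1 table for each region with 1 column per library, and 0 sample columns were left unused. HISAT2 2.2.0, Trimmomatic 0.38, FastQC 0.11.9, DESeq2, edgeR and the build GRCm38 are named in the submitters' processing notes, without roles. The counting tool, strand setting and annotation were not given in the sources used. Symbols were found in GENCODE M21 for 19795 of 19918 IDs. Gene positions in that annotation are Sst chr16:23889573-23890958, Npy chr6:49822710-49829507, Vip chr10:5639218-5647617, Cck chr9:121489824-121495694, Adcyap1 chr17:93199017-93206537, Pvalb chr15:78191114-78206400, Calb2 chr8:110137502-110168210, Lhx6 chr2:36081953-36105408, Gad1 chr2:70553072-70602014 and Gad2 chr2:22622205-22693874.

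Counts were fitted here with edgeR 4.0.16 (quasi-likelihood, robust dispersion, TMM, filterByExpr on the groups) under R 4.3.3, in a model of 8 group means plus cohort (19684 genes for the NAc, 19292 for the PFC). A gene was called at a Benjamini-Hochberg adjusted p below 0.05 over all genes of its fit, and intervals are 95%. The regions were compared in 1 fit of 96 libraries with the animal as a block, because both regions came from the same 48 animals. That fit also held a region by cohort term with cohort 1 as its reference, so its region differences are those of cohort 1. The deviations of an animal's libraries from their group means had a median correlation of 0.0988 over 11735 genes, with 24 of 48 animals above 0.1. Levels are CPM with TMM library sizes, and SDs are over libraries. Correlations used log2 CPM with a prior count of 2, in Python 3.11.15 with numpy 2.4.6 and scipy 1.17.1. The scripts were tested on simulated counts with a common spread for all genes. Of 100 genes changed by 0.3 on the log2 scale, XX minus XY in the PFC called 91 and NAc minus PFC called 2. Of 100 genes changed by 1, each called 100. The spread of single members differs from the simulated one, so these shares do not carry over to them.

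Alternatives were DESeq2 1.42.0, limma-voom (limma 3.58.1), RLE scaling, other filters on low counts, no cohort term, 2 surrogate variables (sva 3.50.0), single cohorts and leaving out each library. The members and gene lists were chosen with earlier results of these data known. The fits without 3 PFC libraries, the olfactory bulb list and the contrasts within a gonad type were added after values were seen. All members are named for the region, stress, chromosome and gonad comparisons, members of low p for the other contrasts, and from each list of related genes up to 4 called genes with the smallest p, except that 1 such result is not reported here. Intervals cover counting error and the spread between animals of this study only.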

Additional observations from a re-analysis of the deposited data

Results flagged for a closer look

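In each of 160 combinations of gene, region and group, the highest and lowest library was compared with the others by Dixon's test, and 17 values stood out. Chance flags about 1 in 20 such groups. Calb2 in the PFC was far above its group in XY- Stress replicate 15 (59.96 CPM, next 13.2), XXSry Control replicate 51 (42.2 CPM, next 13.2) and XY-Sry Control replicate 38 (36.3 CPM, next 12.6), the libraries with high olfactory bulb genes. In the NAc, Calb2 stood out in XY- Stress replicate 26 at 46.1 CPM and in XY- Control replicate 16 at 38.7 CPM.

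NAc library 7 of the XY-Sry Stress group, the one with the highest cortical marker sum, stood out for Cck (59.0 CPM, next 23.996), Adcyap1 (3.42 CPM, next 1.16) and Pvalb (13.6 CPM, next 4.03). NAc library 27 of the XXSry Control group, with the lowest sum, stood out for Gad2 at 1130 CPM (next 938). The part of the cortical genes in these values was not tested. Other NAc libraries stood out singly: Vip at 19.4 CPM in XX Stress replicate 9, Adcyap1 at 9.64 CPM in XXSry Control replicate 34 and Pvalb at 9.78 CPM in XXSry Stress replicate 12.

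In the PFC the gaps were small in size. Sst was at 129 CPM in XXSry Stress replicate 52 and at 115 CPM in XXSry Control replicate 3, both below their groups. Vip was at 57.2 CPM in XX Control replicate 10, Gad1 at 328 CPM in XY-Sry Stress replicate 7 and Gad2 at 223 CPM in XX Control replicate 35, all above their groups.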

How the results depend on the processing

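The 10 regional calls held under RLE scaling, both other filters on low counts, limma-voom, and without the replicate block of the animal (Sst -0.16, Cck -2.91, Gad2 2.16). Without cohort 1 the fit gives the region differences of cohort 2 rather than those of cohort 1. In that fit Sst (0.037), Npy and Lhx6 were not called and Sst turned round. As the reference changes, this does not test how far the calls rest on cohort 1. For XX minus XY in the PFC, 1 member (Adcyap1) was called, and 0 with 2 surrogate variables, within cohort 2 and within cohort 3, in which fewer animals were tested. Leaving out each library gave 0 to 1 members, with 0 without XX Stress replicate 18. For stress in XY- mice in the PFC, DESeq2 called 1 member (Vip) where edgeR called 0. The share of all genes that DESeq2 called there is not given. Covarying pairs numbered 39 over all libraries, 2 within cohort 2 and 15 within cohort 3, again with fewer libraries. Within cohort 1, the largest, 24 pairs passed in the NAc and 5 in the PFC. Group means were not removed within cohorts, and these counts do not say that the pairs were the same. Members that were not called changed sign in 115 of 737 values under the alternatives, and in 141 of 1660 for the within-genotype and interaction contrasts, none of them called. All values that follow are log2 differences that were not called and whose sign turned, and the cause was not tested.

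With 2 surrogate variables these were, for stress minus control in the NAc, Sst 0.031, Vip 0.0017, Cck 0.025, Pvalb 0.056, Calb2 0.015, Gad1 -0.023 and Gad2 -0.039. For XX minus XY they were Gad2 0.020 in the NAc, and Pvalb -0.055 and Lhx6 -0.0059 in the PFC. For testes minus ovaries they were Npy -0.000790 and Cck -0.085 in the NAc, and Pvalb -0.018 and Calb2 0.13 in the PFC. Calb2 for stress in the NAc was at 0.0011 with DESeq2, 0.000462 with RLE scaling, 9.86e-05 with the strict filter and 0.083 without the cohort term. Limma-voom gave Pvalb 9.75e-05 for XX minus XY in the NAc, and for testes minus ovaries Vip 0.044 and Adcyap1 0.066 in the NAc and Calb2 0.046 in the PFC. Without the cohort term Lhx6 was at -0.0016 for XX minus XY, Npy at 0.000795 for stress, and Adcyap1 at 0.0025 and Calb2 at 0.013 for testes minus ovaries, all in the PFC. Without the 3 PFC libraries with high Calb2, Lhx6 was at -0.0084 for XX minus XY and Npy at 0.0064 for testes minus ovaries.

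Within cohort 1, stress gave Vip 0.12, Adcyap1 0.022, Pvalb 0.24, Calb2 0.18 and Gad1 -0.015 in the NAc and Cck 0.012 in the PFC. There XX minus XY gave Sst 0.0097, Vip -0.15, Cck -0.15, Adcyap1 -0.039, Lhx6 0.095 and Gad2 0.045 in the NAc, and Vip 0.021, Pvalb -0.0074 and Lhx6 -0.014 in the PFC. Testes minus ovaries gave Vip 0.23 and Pvalb 0.13 in the NAc, and Sst -0.043, Vip 0.00042, Adcyap1 0.020, Pvalb -0.018 and Calb2 0.19 in the PFC. Within cohort 2, stress gave Sst 0.14 in the NAc, and Adcyap1 -0.040 and Pvalb 0.044 in the PFC. There XX minus XY gave Vip -0.13, Cck -0.16, Calb2 0.045, Lhx6 0.055 and Gad2 0.086 in the NAc and Sst 0.084 in the PFC. Testes minus ovaries gave Npy -0.039, Cck -0.055, Adcyap1 0.44, Calb2 0.034 and Lhx6 0.074 in the NAc, and Npy 0.041, Lhx6 -0.022, Gad1 -0.031 and Gad2 -0.067 in the PFC. Within cohort 3, stress gave Sst 0.068 and Npy 0.051 in the NAc, and Npy 0.16, Cck 0.030, Pvalb 0.086, Gad1 0.052 and Gad2 0.10 in the PFC. There XX minus XY gave Pvalb 0.11 and Gad1 -0.11 in the NAc, and Pvalb -0.030, Calb2 0.015 and Lhx6 -0.060 in the PFC. Testes minus ovaries gave Sst -0.087, Npy -0.084, Cck -0.39, Gad1 0.031 and Gad2 0.11 in the NAc, and Calb2 0.025 and Gad1 -0.0028 in the PFC.

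Leaving out each library in turn gave these ranges. For stress in the NAc they were Sst -0.032 to 0.020, Vip -0.19 to 0.0057, Pvalb -0.27 to 0.075, Calb2 -0.037 to 0.065 and Gad1 -0.010 to 0.032. For stress in the PFC they were Npy -0.040 to 0.0057, Cck -0.029 to 0.012, Pvalb -0.041 to 0.034 and Calb2 -0.35 to 0.032. For XX minus XY they were Sst -0.038 to 0.016, Npy -0.057 to 0.0020, Vip -0.060 to 0.15, Pvalb -0.20 to 0.088, Lhx6 -0.066 to 0.011 and Gad2 -0.051 to 0.013 in the NAc, and Lhx6 -0.0084 to 0.012 in the PFC. For testes minus ovaries in the NAc they were Sst -0.0094 to 0.047, Npy -0.021 to 0.029, Vip -0.069 to 0.084, Cck -0.072 to 0.14, Adcyap1 -0.43 to 0.039 and Gad2 -0.035 to 0.00903. In the PFC they were Sst -0.000504 to 0.022, Npy -0.025 to 0.0057, Adcyap1 -0.024 to 0.020, Pvalb -0.014 to 0.046, Calb2 -0.12 to 0.19 and Gad2 -0.0051 to 0.026.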
